A study of Mus musculus with 6 samples.

Results

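A set of 8 genes of neuroimmune signalling was followed in type-2 innate lymphoid cells (ILC2s) of mouse visceral adipose tissue: Penk and Calca, which encode neuropeptide precursors, and the receptor genes Nmur1, Calcrl, Ramp1, Ramp3, Vipr1 and Vipr2. They were taken by symbol from a list of members, and all 8 were among the 53278 genes of the count table. The cells came from C57BL/6 mice 8 weeks of age given 3 intraperitoneal injections of 1 µg IL-33, and were sorted for CD45, ST2 and CD117 on their surface and for the lack of lineage markers, FcεRI of mast cells and basophils among them, and then cultured for 48 h in IL-7 and IL-2 (10 ng/mL of each), to which either the isotype control antibody or DTA-1 (5 µg/mL) was added. DTA-1 is an agonistic antibody to the TNF receptor family member GITR. IL-33, IL-2 and IL-7 were thus common to both groups, and no group without IL-33 was analysed here. Each group had 3 libraries made from 10 ng of RNA, and those of isotype control are called controls below. The labels do not say whether the 3 came from separate mice or cultures, so p-values measure the spread between these libraries, which may be technical. The culture time is that of the labels and the methods, while the results text of the study names a shorter one.

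Neuropeptides are cut from longer precursors and act on receptors of the G protein-coupled kind. Nerves and some immune cells release them, and ILC2s carry receptors for several: neuromedin U acts on NMUR1 and is known as a fast stimulus of type-2 cytokine release, calcitonin gene-related peptide (CGRP) acts on the CALCRL protein paired with RAMP1 and is known to restrain ILC2 expansion, and vasoactive intestinal peptide (VIP) acts on VPAC1 and VPAC2, the products of Vipr1 and Vipr2. In adipose tissue, enkephalin peptides made by ILC2s from the Penk precursor are known as a signal to fat cells.

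The 2 precursor genes are shown first, since the peptide is what a receptor reads and a gene count covers the whole precursor. Penk lies on chromosome 4 (GRCm38, bases 4133531 to 4138819, minus strand). Its transcript Penk-201 (GENCODE mouse release 21) holds 7 coding copies of an enkephalin sequence, all in exon 2. By sequence 6 are Met-enkephalin and 1, the sixth, is Leu-enkephalin. The copies are printed 5′ to 3′ on the strand of the gene. The 15 bases of the enkephalin are in capitals and the 2 codons on each side in lower case. In 5 of the 7 copies both flanks encode a pair of basic residues, the kind of site at which prohormone convertases cut. Copies 4 and 7, both Met-enkephalin, lack such a pair after the enkephalin, so the number of sequences is not a number of free peptides.

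Met-enkephalin, chr4:4134328-4134354: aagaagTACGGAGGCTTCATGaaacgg

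Met-enkephalin, chr4:4134307-4134333: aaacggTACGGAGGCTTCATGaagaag

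Met-enkephalin, chr4:4134220-4134246: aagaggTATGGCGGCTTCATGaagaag

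Met-enkephalin, chr4:4134067-4134093: aagaggTATGGGGGCTTCATGagaagc

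Met-enkephalin, chr4:4133995-4134021: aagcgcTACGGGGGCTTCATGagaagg

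Leu-enkephalin, chr4:4133935-4133961: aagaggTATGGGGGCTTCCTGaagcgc

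Met-enkephalin, chr4:4133842-4133868: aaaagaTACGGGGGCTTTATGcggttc

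Calca lies on chromosome 7 (bases 114631478 to 114636357, minus strand) and makes either CGRP or the hormone calcitonin by alternative splicing. The stretch for CGRP (111 bases, exon 4 of Calca-201) and that for calcitonin (96 bases, exon 4 of Calca-202) are separate pieces of the gene, printed here in capitals throughout. A count per gene adds both transcripts together, so the Calca values below cannot be divided between the 2 peptides.

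CGRP, chr7:114632470-114632580: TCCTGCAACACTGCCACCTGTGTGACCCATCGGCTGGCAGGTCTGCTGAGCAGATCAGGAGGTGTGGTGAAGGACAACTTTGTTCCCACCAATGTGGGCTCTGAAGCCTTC

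Calcitonin, chr7:114633665-114633760: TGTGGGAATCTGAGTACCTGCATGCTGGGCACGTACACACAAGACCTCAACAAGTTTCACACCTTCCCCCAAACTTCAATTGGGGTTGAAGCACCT

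Total expected counts ran from 30569351 to 35131329 per library, at which a count of 0 allows up to 3 counts, or 0.0854 to 0.0981 CPM (counts scaled to the library total), for counting error only. The library labelled DTA-1 replicate 1 stood apart from its group. The chi-square between its counts and those of another library, divided by its degrees of freedom, was 10.1 to 11.9 for the isotype control libraries and 29 and 30.5 for DTA-1 replicates 2 and 3. Isotype control libraries were 12 to 18.4 from each other, which leaves no pair that differed by sampling noise alone. Results of the 8 genes, and those of pathway genes that were called without this library, are therefore given also without it. It was picked from these same counts as the DTA-1 library nearest the controls, so its removal favours larger group differences. Calls and p-values without it are descriptions and not separate support for a change. Tnfrsf18, which encodes GITR, had 666 to 747 normalized counts (CPM after TMM normalization, used throughout) in isotype control and 657 to 756 in DTA-1.

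All 14 ILC2 genes of the marker list passed the count filter, with summed normalized counts of 14447 to 15284 in the controls against 15488 to 19993 with DTA-1. By their means 8 of the 14 were lower and 6 higher in DTA-1, and Il5, the largest part of the rise in the sum, had 5063, 5418 and 5493 against 5627, 9695 and 8899. Summed fibroblast markers were 3.14 to 10 against 0.897 to 4.14, with 8 of 10 lower in DTA-1 by their means and Dpt at 0. Col1a1, Fbn1 and Pdgfra were among the genes that DESeq2 called with all 6 libraries (adjusted p of 0.00344, 0.00609 and 0.0023), all lower. They were also called by edgeR without DTA-1 replicate 1 (adjusted p of 0.0325, 0.0359 and 0.0481). Their levels were low, at most 1.93 normalized counts in a library. The 7 endothelial markers summed to 18.4 to 24.4 against 10.6 to 18.3, mostly Pecam1, with Cdh5 and Cldn5 at 0. By their means 2 were lower and 3 higher in DTA-1, and Pecam1 alone passed the count filter. Pecam1 was called lower by edgeR without DTA-1 replicate 1 (log2 fold change -1.03 ± 0.16, adjusted p of 0.0132). Mast cell or basophil markers summed to 11.6 to 16.9 in isotype control, 12.4 in DTA-1 replicate 1, and 30.7 and 22.2 in replicates 2 and 3; 5 of 6 had higher means in DTA-1. T cell markers summed to 41.7 to 56 in isotype control and 47.8 to 52.4 in DTA-1, mostly Cd3g, at 36.2 to 48.6 over the 6 libraries. Cd3e had 2.34 to 3.72, and Cd8a was at 0. The other sums in isotype control and DTA-1 were 17.1 to 21.8 and 13 to 20.6 for regulatory T cells, and 25.9 to 28.7 and 27.8 to 28.3 for B cells (Ms4a1 and Pax5 at 0). For macrophages they were 6.44 to 12.2 and 8.67 to 11.9. Neutrophil, mesothelial and adipocyte sums were at most 1.05, 1.41 and 0.454. Neuron or glia markers summed to at most 0.596, with Snap25, Rbfox3, Syt1 and Sox10 at 0. The part of these cells in the results below was not tested, and in bulk RNA fewer cells of a type and less RNA per cell cannot be told apart.

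DTA-1 was compared with isotype control by edgeR's quasi-likelihood test, and a gene was called when its Benjamini-Hochberg adjusted p was under 0.05 with a change of at least 1.5-fold. Of 14361 genes that passed the filter, 0 (0%) were called, with a smallest adjusted p of 0.452. DESeq2 called 25 genes, limma-trend 0, and 1037 (7.22%) had an unadjusted edgeR p under 0.05. Without DTA-1 replicate 1, edgeR called 111 of 14911 genes (0.744%), 87 higher and 24 lower. Of the 8 neuropeptide and receptor genes, 7 passed the filter and 0 were called by edgeR, limma-trend or DESeq2, and 0 were called without DTA-1 replicate 1. By their means 3 were higher and 4 lower in DTA-1, with a median log2 fold change of -0.05 against -0.01 over all genes tested. One of them, Nmur1, had an unadjusted p under 0.05.

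Of the precursors, Penk was expressed at a low level in all 6 libraries, and its spread was wide in DTA-1. Its normalized counts were 4.49, 5.47 and 4.96 for controls 1 to 3, against 3.2, 6.53 and 9.38 for DTA-1 replicates 1 to 3, an order kept in all sets of values below. DTA-1 replicate 1 was thus the lowest of the 6 libraries and replicates 2 and 3 the highest, so that the groups overlapped. The counts behind these values were 159, 192 and 175 in the controls against 99, 204 and 299 with DTA-1. The means were 4.98 ± 0.49 (SD, n = 3) and 6.37 ± 3.09 (SD, n = 3), and the coefficient of variation was 9.86% among controls and 48.5% with DTA-1, beside medians over all genes tested of 10.4% and 11.8%.

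The log2 fold change of Penk was 0.36 ± 0.33 (SE; 95% interval -0.36 to 1.08), with an adjusted p of 0.849 by edgeR. Without DTA-1 replicate 1 it was 0.68 ± 0.23 (interval 0.16 to 1.19), with an unadjusted p of 0.0157 and an adjusted p of 0.22 by edgeR. At that unadjusted p the background was wide: 2092 of 14911 genes (14.0%) had a p under 0.05 without this library, and 2 of the 7 genes did, Penk and Nmur1. Without DTA-1 replicate 3, the highest library, the value was -0.03. The Penk difference therefore rested on single DTA-1 libraries, and the interval with all 6 did not exclude either no change or a 2-fold rise. Fibroblast markers, summed, were 7.32, 3.14 and 10 in the controls against 1.23, 0.897 and 4.14 with DTA-1. In DTA-1 replicate 3 that sum was mostly Col3a1 and Col1a2, with Fbn1 and Pdgfra at 0 in every DTA-1 library. Regulatory T cell markers, summed, were 20.6, 13 and 14.7 in DTA-1 replicates 1 to 3, mostly Ikzf2 (17.6, 11.4 and 11.4). Foxp3 had 2.94, 2.54 and 2.83 in the controls against 2.13, 1.19 and 2.32 with DTA-1, every DTA-1 library below every control. Among DTA-1 libraries Foxp3 was highest in replicate 3, as was Penk. It was lowest in replicate 2, where Penk was above every control. The part of such cells in the Penk values was not tested. Exons of Penk share 233 of 1634 bases with A830012C17Rik on the other strand, which had at most 1 count in a library.

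Calca had 29, 17.9 and 21.6 normalized counts in the controls against 21.9, 19.4 and 16.2 with DTA-1. Isotype control replicate 1 was the highest library and DTA-1 replicate 3 the lowest, and the other 4 lay interleaved. The means were 22.8 ± 5.63 and 19.2 ± 2.88 (SD, n = 3 each), and the log2 fold change was -0.25 ± 0.18 (SE; interval -0.65 to 0.15) with an adjusted p of 0.789 by edgeR. It was -0.04 without isotype control replicate 1 and -0.36 ± 0.20 without DTA-1 replicate 1 (adjusted p of 0.467 by edgeR). The related gene Calcb, which encodes a second CGRP and could share reads with Calca, had 1 count in DTA-1 replicate 2, 9 in DTA-1 replicate 3 and 0 in the other 4 libraries.

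**Figure D1:**
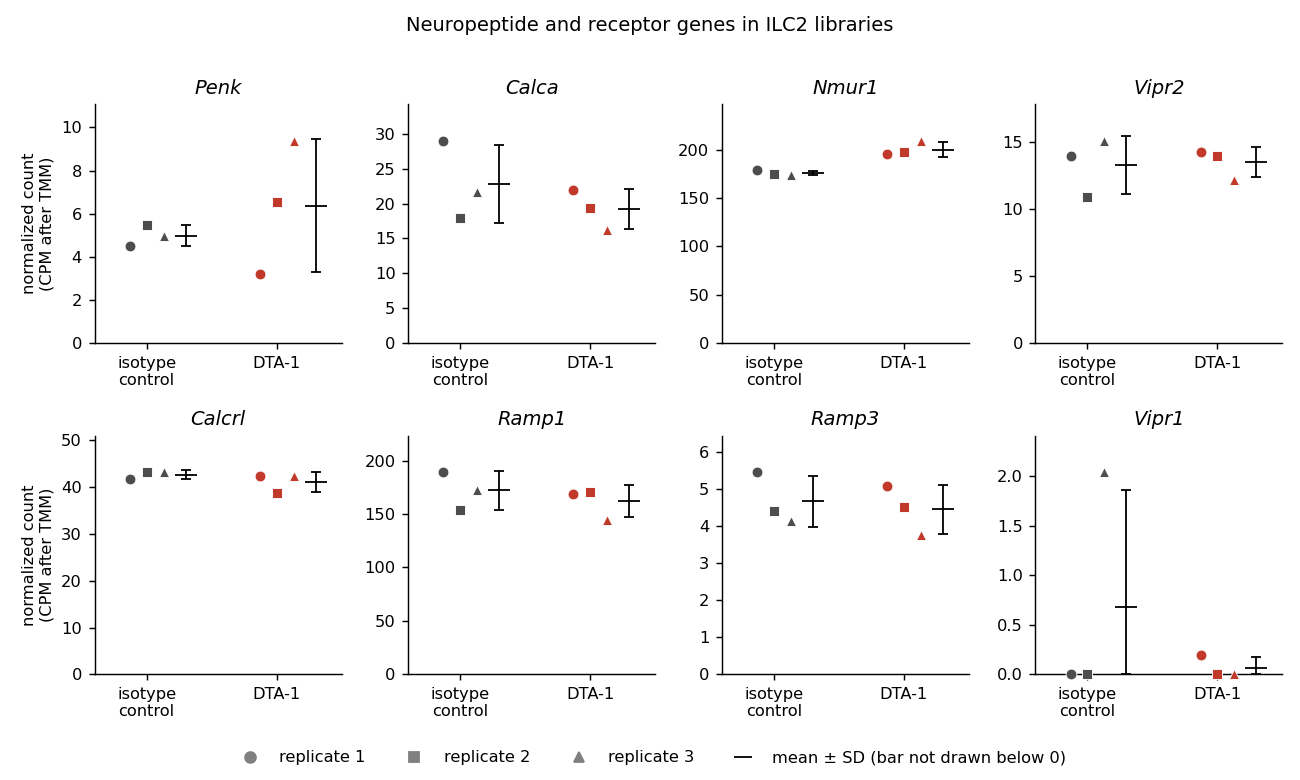
Normalized counts (CPM after TMM normalization, linear axes from 0) of the 8 genes in each of the 3 isotype control and 3 DTA-1 libraries, with points for libraries and bars for mean ± SD. Nmur1 shows all DTA-1 points (195 to 209) above all isotype control points (174 to 179), Penk shows DTA-1 points on both sides of the control points, and Vipr1 lies at 0 in 4 libraries.

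Nmur1, the receptor gene of neuromedin U, had the lowest coefficient of variation of the 8 within each group, 1.3% among controls and 3.68% with DTA-1. Its normalized counts were 179, 175 and 174 in the controls against 195, 197 and 209 with DTA-1, so that every DTA-1 library was above every isotype control library, including replicate 1. This order was common: 755 genes (5.26%) had every DTA-1 library above every isotype control library, and 866 (6.03%) had every one below. Of the 7 genes tested, 1 was separated upward and 0 downward. Divided by the exon length of Nmur1 in kb, the means were 104 ± 1.35 for the controls and 118 ± 4.35 with DTA-1 (SD, n = 3 each). Nmur1 had a log2 fold change of 0.19 ± 0.06 (SE; interval 0.05 to 0.32), with an unadjusted p of 0.01 and an adjusted p of 0.627 by edgeR, and 0.20 ± 0.06 with an adjusted p of 0.158 without DTA-1 replicate 1. Over the alternatives the log2 fold change stayed between 0.15 and 0.20 and the adjusted p between 0.158 and 0.999, so the difference was steady in size, small, and did not pass the test in any of them. The whole interval lay under 1.5-fold. Nmur1 lies on chromosome 1 (bases 86386303 to 86426228, minus strand). Nmu and Nms, the genes of its ligands, and Nmur2, the other neuromedin U receptor gene, had 0 counts in all 6 libraries.

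The CGRP receptor genes were close to even between the groups. Calcrl (chromosome 2, bases 84330626 to 84425411, minus strand), the receptor chain shared by CGRP and adrenomedullin, had 41.7, 43.2 and 43.2 normalized counts in the controls against 42.5, 38.8 and 42.4 with DTA-1. Only DTA-1 replicate 2 lay apart, on the low side. The log2 fold change was -0.05 ± 0.09 (SE; interval -0.24 to 0.15) with an adjusted p of 0.939 by edgeR, so that a change of 1.5-fold in either direction lay outside its interval.

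Ramp1 (chromosome 1, bases 91179822 to 91225196, plus strand), the accessory protein that makes CALCRL a CGRP receptor, had 189, 154 and 172 normalized counts in the controls against 169, 171 and 144 with DTA-1. The groups overlapped, with the highest library in isotype control and the lowest in DTA-1. Its log2 fold change was -0.09 ± 0.09 (SE; interval -0.29 to 0.11), with an adjusted p of 0.869 by edgeR. Ramp3 (chromosome 11, bases 6658521 to 6677475, plus strand), which makes CALCRL an adrenomedullin receptor, had 5.45, 4.42 and 4.14 normalized counts in the controls against 5.08, 4.52 and 3.76 with DTA-1. These too overlapped, and the log2 fold change of -0.07 ± 0.23 (SE; interval -0.58 to 0.44) had an adjusted p of 0.965 by edgeR. Ramp2, the third accessory protein gene, was at 0.113 to 0.594 normalized counts in the controls against 0.188 to 0.582 with DTA-1, on 4 to 21 counts. Calcr, the calcitonin receptor gene, had 0 counts in all 6 libraries.

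Of the VIP receptor genes, Vipr2 was counted in every library and Vipr1 in few. Vipr2 (chromosome 12, bases 116077726 to 116146261, plus strand) had 14, 10.9 and 15.1 normalized counts in the controls against 14.3, 14 and 12.2 with DTA-1. All DTA-1 libraries lay within the isotype control range, and the log2 fold change was 0.02 ± 0.16 (SE; interval -0.33 to 0.38) with an adjusted p of 0.987 by edgeR. The antisense gene Gm20658 overlaps Vipr2 and had 175 to 317 counts, but shares 0 exon bases with it in the annotation. Vipr1 (chromosome 9, bases 121642716 to 121672954, plus strand) had 0, 0 and 72 counts in the controls against 6, 0 and 0 with DTA-1. It was removed by the filter and has no test there, and no fold is given, since 1 isotype control library held nearly all of its counts. A count of 0 at this depth does not show that the gene was silent. Vip and Adcyap1, the genes of both ligands, had 0 counts in all 6 libraries, and Adcyap1r1, the third receptor gene of this family, had 8 counts in isotype control replicate 2 and 0 in the others.

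Without DTA-1 replicate 1 these receptor genes moved little. The log2 fold change was then -0.07 ± 0.10 (SE) for Calcrl, -0.12 ± 0.10 for Ramp1, -0.17 ± 0.25 for Ramp3 and -0.02 ± 0.18 for Vipr2, with adjusted p by edgeR of 0.807, 0.653, 0.83 and 0.976. For Ramp3 the interval was -0.74 to 0.39, which reaches past a 1.5-fold fall, while those of the other 3 stayed inside 1.5-fold in both directions.

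**Figure D2:**
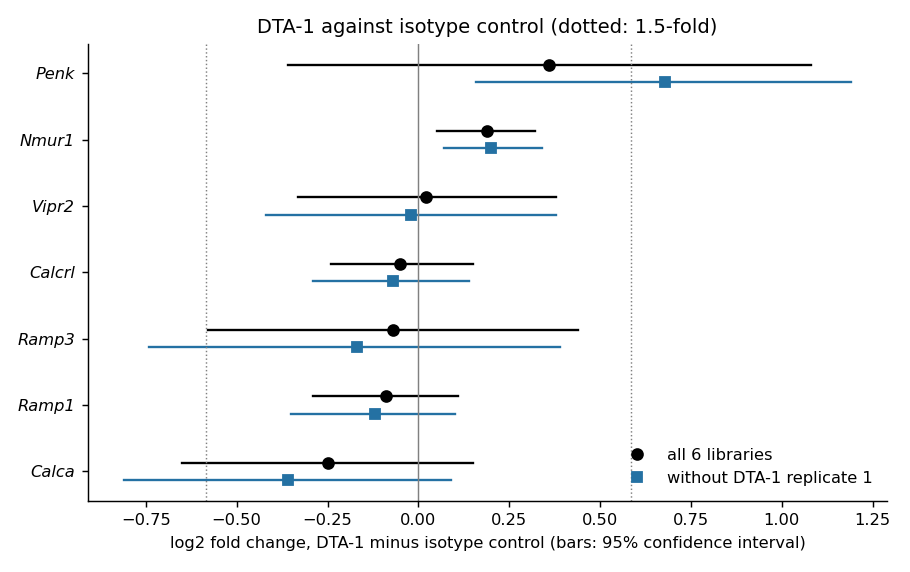
Log2 fold change (DTA-1 minus isotype control, edgeR) of the 7 genes tested, with bars for the 95% confidence interval, for all 6 libraries (black circles) and without DTA-1 replicate 1 (blue squares); dotted lines mark 1.5-fold. With all 6 libraries only the interval of Nmur1 (0.05 to 0.32) lay on one side of 0, and Penk (0.36) moved most when the library was left out (0.68).

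Levels between genes were compared per kilobase of merged exon length (GENCODE release 21). Nmur1 was highest, at 111 ± 8.35 normalized counts per kb (SD over 6 libraries), higher than 96.6% of the genes tested. Ramp1 followed at 55.1 ± 5.2 per kb, above 92.1% of genes. The RNA of the neuromedin U receptor and of the CGRP receptor's accessory chain was thus among the more abundant of these cells.

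Calca stood at 12.5 ± 2.66 normalized counts per kb and Calcrl at 8.6 ± 0.339, above 69.8% and 62.1% of genes. Penk at 3.47 ± 1.3, Ramp3 at 3.31 ± 0.447 and Vipr2 at 3.01 ± 0.347 per kb lay near or under the middle, above 44.4%, 43.6% and 42.1% of genes. Vipr1 was at 0.0642 per kb as a mean, and at 0 in 4 libraries. Neighbours in this order kept their order in all 6 libraries, except that Penk and Ramp3, and Ramp3 and Vipr2, were in this order in 4 of 6 and their ranges overlapped.

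Within a library, the per-kb level of Ramp1 was 15.2 to 19 times that of Ramp3 and 5.49 to 7.34 times that of Calcrl. The per-kb level of Calca was 1.67 to 6.64 times that of Penk: it was 6.26, 3.17 and 4.23 times in isotype control, and 6.64, 2.89 and 1.67 times in DTA-1. The lowest ratio was in the library with the most Penk and the least Calca, DTA-1 replicate 3.

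**Figure D3:**
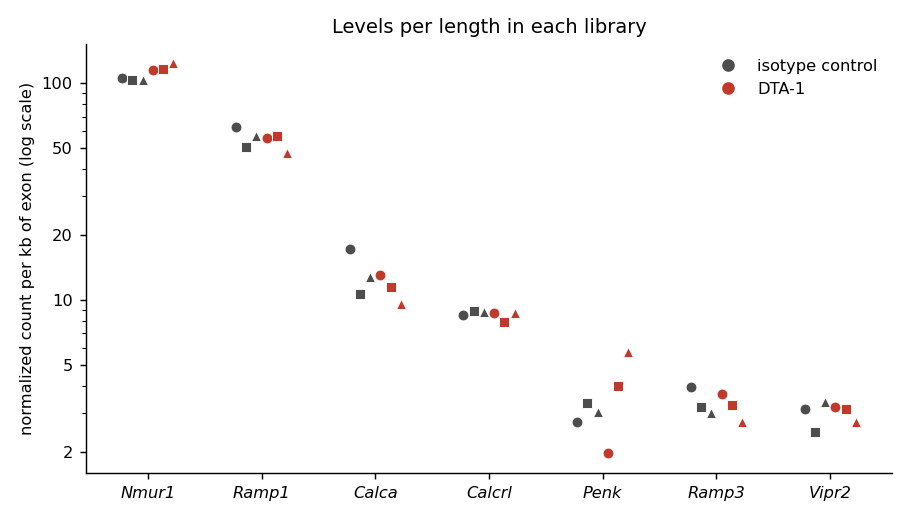
Normalized count per kb of merged exon (log axis) for 7 of the 8 genes in each library; marker shapes give the replicate number as in the plot by library, and Vipr1 is left out because it was at 0 in 4 libraries. Nmur1 (103 to 123) and Ramp1 (47.8 to 62.6) are apart from the rest, while Penk, Ramp3 and Vipr2 overlap.

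The genes whose pattern over the 6 libraries was most like that of a given one of the 8 were found by the root mean square difference of log2 deviations from the gene's own mean, among 8723 genes with a mean of at least 10 normalized counts. For Ramp1 they were Rpl7, Rpl24 and Fau, which encode ribosomal proteins, with Rpl7 at a difference of 0.00381 against a deviation of 0.125 of Ramp1 itself. Rpl7 had 471, 381 and 426 normalized counts in the controls against 418, 423 and 357 with DTA-1, the same order of libraries as Ramp1. For Calca they were Rps19-ps6, a ribosomal protein pseudogene that can share reads with its parent gene, Hlcs and Tmem9, at 0.0778, 0.0829 and 0.088.

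For Nmur1 the most alike were Phtf1, Pgd and Vps52 at 0.0202, 0.0225 and 0.0232, for Calcrl Exog, Kif22 and Dctn5 at 0.0163, 0.0173 and 0.0179, and for Vipr2 Sntb2, Eef2kmt and Washc3 at 0.0279, 0.0421 and 0.0488. Penk, Ramp3 and Vipr1 were under the level of that rule, and the comparison of Penk alone was added after its values were seen. Its most alike genes were Ptprs, Cd274 and Thbs1, at 0.136, 0.147 and 0.176 against a deviation of 0.477 of Penk itself. Cd274, which encodes the ligand PD-L1, had 12.6, 13.7 and 13.2 normalized counts in the controls against 10.7, 20.5 and 25 with DTA-1, so that the same DTA-1 library was lowest and the same was highest. These are descriptions over 6 libraries that share their depth and composition. The alike genes were picked for their likeness in these same libraries, so a shared order of libraries adds no separate support.

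The wider pathway was read from 6 lists of 240 genes, of which 87 passed the filter and 98 had 0 counts in every library. By edgeR 0 of the 87 were called with all 6 libraries, and 0 by DESeq2; 51 had higher and 36 lower means in DTA-1, with a median log2 fold change of 0.02 against -0.01 over all genes tested. At an unadjusted p under 0.05 and 1.5-fold, which 337 of all genes met (2.35%), there were 4 higher (Grp, Tph1, Furin and Anpep) and 2 lower (Chrnb1 and Ddc). Without DTA-1 replicate 1, 91 were tested and edgeR called 3, all higher: Grp, Tph1 and Furin, beside 111 (0.744%) over all genes in that fit. The median log2 fold change was then 0.05, against -0.02 over all genes tested.

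**Figure D4:**
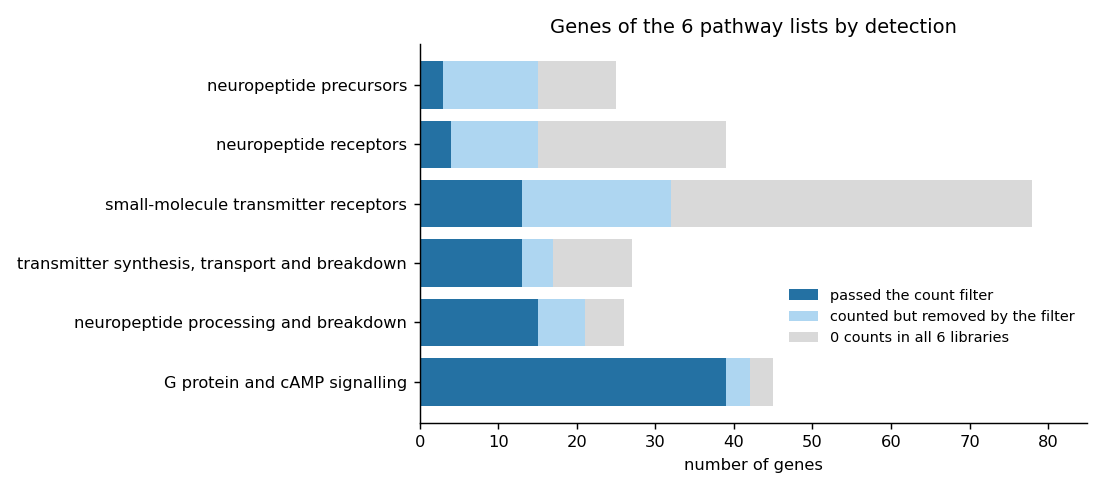
Number of genes in each of the 6 pathway lists that passed the count filter, were counted but removed by it, or had 0 counts in all 6 libraries. Of the small-molecule transmitter receptors 46 of 78 were at 0, while 39 of 45 G protein and cAMP genes passed.

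Among 25 further neuropeptide precursors 3 passed the filter, Nmb, Grp and Pomc, and 10 had 0 counts throughout; the 3 had higher means in DTA-1 with a median log2 fold change of 0.67. Grp, the precursor of gastrin-releasing peptide, had 8.28, 6.44 and 9.61 normalized counts in the controls against 6.82, 18.8 and 16.3 with DTA-1. DTA-1 replicate 1 lay among the isotype control libraries and the other 2 above them. The log2 fold change was 0.78 ± 0.31 (SE) with an adjusted p of 0.657 by edgeR, and 1.11 ± 0.19 with an adjusted p of 0.021 without DTA-1 replicate 1. Nmb, of the same bombesin family, was at 11.6 to 12.6 normalized counts in the controls against 10.6 to 15.3 with DTA-1 (log2 fold change 0.07 ± 0.16). Pomc, the precursor of endorphin and melanocortins, was at 0.143 to 0.873 over the 6 libraries, on 5 to 27 counts. The median of 0.67 for the 3 is the value of Pomc, 0.67 ± 0.67 (SE, interval -0.79 to 2.14), whose groups overlapped.

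Of 39 further neuropeptide receptor genes 4 passed the filter and 24 had 0 counts throughout. The 4 had a median log2 fold change of 0.03. The highest were Ogfr, a zeta-type opioid growth factor receptor outside the G protein-coupled family, at 68.6 to 78.9 normalized counts in the controls against 73.7 to 76.2 with DTA-1, and Crcp, known both as a CGRP receptor component and as a subunit of RNA polymerase III, at 37.6 to 39.9 and 36.8 to 41.2. Their log2 fold changes were 0.05 ± 0.08 and 0.01 ± 0.09. Galr3, a galanin receptor gene, was at 0.157 to 0.841. The classical opioid receptor genes Oprm1, Oprd1 and Oprk1, whose products bind enkephalins or dynorphins, had 0 counts in all 6 libraries, and the related Oprl1 had 6 counts in DTA-1 replicate 2 and 0 in the others.

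Of 26 genes of peptide processing and breakdown 15 passed the filter, 11 with higher and 4 with lower means in DTA-1, and a median log2 fold change of 0.08. Furin and Pcsk1 encode convertases that cut precursors at basic pairs. Furin had 1112, 1347 and 1318 normalized counts in the controls against 1268, 2645 and 2617 with DTA-1. Again DTA-1 replicate 1 lay within the isotype control range and the other 2 far above it. Its log2 fold change was 0.79 ± 0.27 (SE) with an adjusted p of 0.655 by edgeR, and 1.06 ± 0.08 with an adjusted p of 0.000115 without DTA-1 replicate 1.

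Pcsk1 had 856, 950 and 948 normalized counts in the controls against 909, 985 and 1002 with DTA-1, and its log2 fold change of 0.07 ± 0.07 had an adjusted p of 0.849 by edgeR. Ide, a protease that breaks down small peptides, was at 349 to 457 and 398 to 447 (0.08 ± 0.09). Cpe, which trims the basic residues left by the convertases, and Pam, which amidates peptides such as CGRP, were low, at 0.904 to 1.44 and 0.48 to 1.5 over the 6 libraries. Pcsk2 had at most 3 counts in a library. Anpep, an aminopeptidase that degrades enkephalins, had 1.36, 1.51 and 0.51 normalized counts in the controls against 1, 3.56 and 4.39 with DTA-1. Its log2 fold change was 1.40 ± 0.55 (SE), with an adjusted p of 0.655 by edgeR, and 1.82 ± 0.44 with an adjusted p of 0.0878 without DTA-1 replicate 1.

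**Figure D5:**
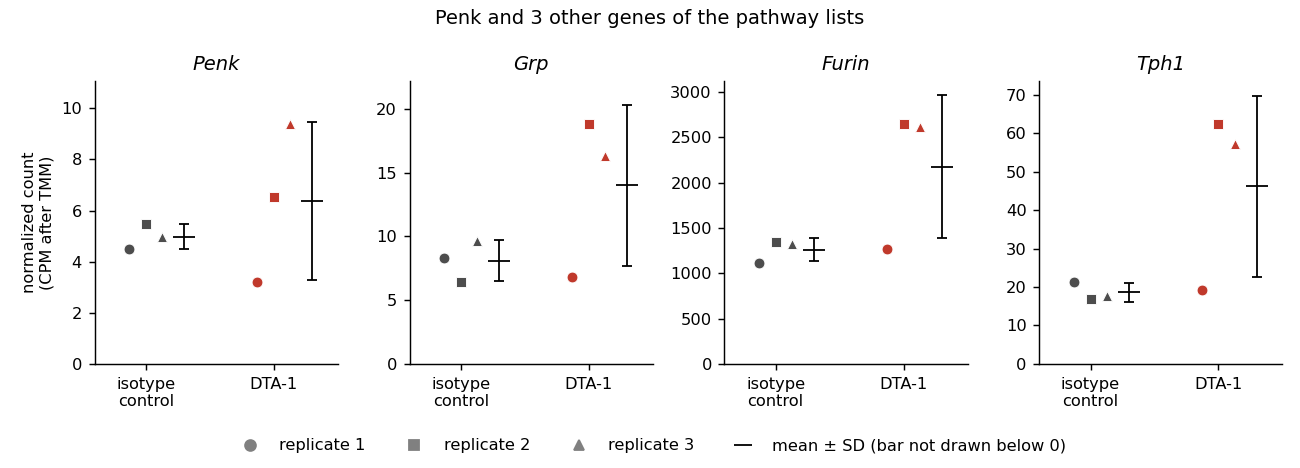
Normalized counts (linear axes from 0) of Penk, Grp, Furin and Tph1 in each library, with bars for mean ± SD. In each gene DTA-1 replicates 2 and 3 lie above the 3 isotype control libraries and DTA-1 replicate 1 does not.

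Of 27 genes of transmitter synthesis, transport and breakdown 13 passed the filter, 7 with higher and 6 with lower means in DTA-1 and a median log2 fold change of 0.00. Tph1, the rate-limiting enzyme of serotonin synthesis outside the brain, had 21.3, 16.8 and 17.6 normalized counts in the controls against 19.2, 62.3 and 57.1 with DTA-1. Its log2 fold change was 1.32 ± 0.39 (SE) with an adjusted p of 0.627 by edgeR, and 1.68 ± 0.12 with an adjusted p of 0.000121 without DTA-1 replicate 1. Mast cells also express Tph1, and Cpa3, one of the mast cell or basophil markers, had 7.49, 7.3 and 4.37 normalized counts in the controls against 6.82, 19.4 and 12.8 with DTA-1. Cpa3 too was called higher by edgeR without DTA-1 replicate 1 (log2 fold change 1.33 ± 0.26, adjusted p of 0.0391). Fcer1a, which encodes a chain of the FcεRI that the sort selected against, had 1.19, 2.85 and 0.765 against 1.52, 2.63 and 3.11. Hdc, the histamine-forming enzyme of such cells, was at 20.7, 27.5 and 12.4 against 24, 28.8 and 16.6. The part of such cells in the Tph1 difference was not tested.

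Ddc, the decarboxylase that acts after Tph1, was low, at 1.22, 0.998 and 0.907 normalized counts in the controls against 0.388, 0.513 and 0.188 with DTA-1. Every DTA-1 library was below every isotype control library, and its log2 fold change of -1.51 ± 0.53 (SE) had an adjusted p of 0.632 by edgeR, and of 0.308 without DTA-1 replicate 1. Glul, which makes glutamine, was among the highest of the list, at 65.2 to 90.6 normalized counts over the 6 libraries, with a log2 fold change of -0.23 ± 0.11, and of -0.37 ± 0.08 without DTA-1 replicate 1 (adjusted p of 0.0543 by edgeR). Chat, the acetylcholine-forming enzyme, had 0 counts in all 6 libraries.

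Of 78 small-molecule transmitter receptor genes 13 passed the filter and 46 had 0 counts throughout; 5 had higher and 8 lower means in DTA-1, with a median log2 fold change of -0.12. The highest were Htr1b, a serotonin receptor gene, at 23.2 to 30.8 normalized counts, Grin2d, an NMDA receptor subunit gene, at 13.5 to 17.9, and Gabbr1, a GABA-B receptor subunit gene, at 11.1 to 17.6. Their log2 fold changes were -0.02 ± 0.13, 0.08 ± 0.15 and -0.19 ± 0.18. Chrnb1, a nicotinic receptor subunit gene, had 3.19, 2.88 and 4.2 normalized counts in the controls against 2.1, 2.47 and 2.13 with DTA-1, all of them lower. Its log2 fold change was -0.61 ± 0.28 (SE), with an adjusted p of 0.688 by edgeR, and of 0.45 without DTA-1 replicate 1. Chrna7, the α7 nicotinic receptor gene, had 0 counts in all 6 libraries.

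The signalling genes downstream of these receptors were mostly expressed and nearly even: 39 of 45 passed the filter, 22 with higher and 17 with lower means in DTA-1, and the median log2 fold change was 0.02. Gnas, the stimulatory G protein used by the CGRP and VIP receptors, had 1332 to 1422 normalized counts in the controls against 1355 to 1463 with DTA-1 (0.06 ± 0.06). Gnai2 and Prkar1a, an inhibitory G protein and a regulatory subunit of protein kinase A, were at 922 to 984 and 848 to 896 over the 6 libraries (0.02 ± 0.06 and 0.04 ± 0.06). Gnaq, of the G protein class used by NMUR1, had 10.8, 12.6 and 13 in the controls against 10.7, 8.9 and 10 with DTA-1, every DTA-1 library below the lowest isotype control library though by little for replicate 1. Its log2 fold change was -0.30 ± 0.16 (SE), with an adjusted p of 0.737 by edgeR.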

How the data were processed

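RNA was sequenced on an Illumina NextSeq instrument from 3 isotype control and 3 DTA-1 libraries. Per the labels, the submitters' processing notes name bcl2fastq 2.17.1.14, STAR 2.5.3a, Partek and mm10. The values the authors deposited are expected counts: reads assigned to genes by estimation, not normalized, of which 77.8% were whole numbers. The annotation release and strand setting are not given in the sources used here. Gene coordinates matched GENCODE mouse release 21 for 47669 of 49618 shared symbols.

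Expected counts were rounded and fitted over all genes with edgeR 4.0.16 under R 4.3.3, using TMM after filterByExpr within groups and a robust quasi-likelihood F test without covariates; limma 3.58.1 and DESeq2 1.42.0 were alternatives. The SE is the absolute log2 fold change divided by the square root of F. The call rule is that of the study. The study, which used Partek and named no model, showed differentially expressed genes under this rule. The 0 calls of edgeR with all 6 libraries therefore differ from its result. With 3 against 3, exact permutation cannot reach p < 0.05 and was not used. Sequences come from GENCODE transcripts. Tables used numpy 2.4.6 and pandas 2.3.3 under Python 3.11.15, and plots matplotlib 3.10.9.

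The 8 genes, the pathway and marker lists and the tests were chosen with earlier results of these data known. Named genes were the 8, the 3 highest tested genes of each pathway list, those with an unadjusted p under 0.05 and 1.5-fold, and a few taken for their role (Tph1, Chat, Chrna7, Nmu, Vip, Adcyap1, Ramp2, Gnas, Gnaq); a few genes that this rule or the marker lists would name are not reported here. Ligand, receptor, processing and mast cell genes named beside them were added for their role after values were seen. On simulated data with 200 genes changed 2-fold among 14361, edgeR recovered 193 (96.5%) with 9 false calls. There every gene had the same dispersion, changed genes were drawn above a count limit, and no library differed from its group. That recovery therefore does not measure the power for the real libraries or for genes with low counts.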

Additional observations from a re-analysis of the deposited data

How the results depend on the processing

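Over the 13 refits and the other call rules, 0 of the 8 genes were called. Of 91 log2 fold changes of the 7 tested genes under these refits 85 kept their direction and 6 reversed, none past the threshold: Penk was -0.03 without DTA-1 replicate 3, Ramp3 was 0.06 without isotype control replicate 1 and 0.04 without DTA-1 replicate 3, and Vipr2 was -0.01 with total counts, -0.10 without isotype control replicate 2 and -0.02 without DTA-1 replicate 1. Leaving out 1 library gave -0.03 to 0.68 for Penk, -0.17 to 0.06 for Ramp3 and -0.10 to 0.12 for Vipr2. Over the whole table the count of called genes was 0 with all 6 libraries, 25 by DESeq2's Wald test, 2 without the filter on low counts, 1 with the replicate block, 337 at an unadjusted p under 0.05 with 1.5-fold, and 0 to 111 when 1 library was left out, where 111 was without DTA-1 replicate 1 and the other 5 gave 0. For the other genes of the pathway these counts were 0 by DESeq2, without the filter and with the block, 6 at the unadjusted p, and 0 to 3 when 1 library was left out. The cause was not tested. Same-numbered libraries had correlations of -0.0069, -0.00285 and 0.0152 in their deviations from the group means, and the block changed no call of the 8 genes. With 3 libraries per group, these correlations cannot exclude that the replicate numbers pair the libraries. Total counts in place of TMM moved the median log2 fold change of all genes by -0.04. With the longest coding transcript in place of merged exons, Calca was 21.1, Nmur1 123, Ramp1 71.7, Vipr2 3.97, Penk 3.92 and Ramp3 3.7 per kb, so the order of the last 3 changed.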
